A study of Mus musculus with 6 samples.

Results

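The transcripts described here are the newly assembled long noncoding RNAs (lncRNAs) over Pcdh15 on mouse chromosome 10. They were taken by position, as every transcript whose locus lay inside a window that began 49.3 kb before Pcdh15 and ended 50.3 kb after it on the mm10 build, and 30 of the 18573 transcripts in the deposited table met this rule. The region had been picked for its level in spermatogonial stem cells (SSCs), so the difference between the cell types over it is a description and was not tested. SSCs are the germline stem cells of the testis, and female germline stem cells (FGSCs) are cells of the same kind sorted from the ovary. Strand-specific RNA-seq was run on 3 libraries of SSCs and 3 libraries of FGSCs. Per the labels, SSCs came from the testis of C57BL/6 mice aged 3 to 5 days and FGSCs from the ovary of C57BL/6 mice aged 6 days. The study's methods give these ages the other way round. They describe the cells as sorted for green fluorescence from young mice that carried Ddx4-Cre and the mT/mG reporter, with the cells of many mice pooled. The Ddx4-Cre parent named there is an FVB line, so the strain too differs between the labels and the methods. Ddx4 drives Cre in germ cells in general, so the reporter marks the germline and not stem cells alone. After sorting, the authors also removed cells that did not bind to laminin. The paper reports checks of the isolated cells for germ cell and stemness genes and for proliferation. Cell type, tissue, sex and age change together between the groups, and their parts in a difference cannot be told apart.

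Levels are FPKM, sequenced fragments scaled by transcript length and by library depth, with 1 pooled value for each transcript in each cell type. Without library values, no SD, n or test is given here with a level, and differences are not set against the spread between libraries. The authors' own p-values for the difference of each transcript were not used. In these bulk samples, fewer cells that make an RNA and less RNA per cell cannot be told apart. How many reads stood behind a transcript is unknown, and a transcript given as 0 is described as listed at 0. None of the 22 germ cell and somatic marker genes looked up for the labelled cell types had a transcript among these lncRNAs, so the labels were not checked against markers, and the mRNAs were not analysed here.

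Pcdh15 encodes protocadherin 15, a large cadherin of the cell surface. In the hair cells of the inner ear it forms, with cadherin 23, the tip links that join neighbouring stereocilia and pull on the mechanotransduction channels. Loss of the gene causes deafness and balance defects in the mouse and a form of Usher syndrome, a combined loss of hearing and sight, in humans. An antisense RNA is read from the opposite strand of a gene, and does not encode the protein of that gene.

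By the GENCODE M21 annotation, Pcdh15 (ENSMUSG00000052613.16) lies on the plus strand at chr10:73099342-74649737, with 41 transcripts of which 29 are protein-coding. The first protein-coding transcript begins at base 73821867. The upstream part of the gene holds a noncoding transcript, Pcdh15-224 (ENSMUST00000148572.1), annotated as a retained intron transcript at chr10:73099435-73716595. Its 3 exons of 782, 73 and 1857 bases are spread over 617.2 kb, they overlap no coding base of Pcdh15, and the last one ends 105.3 kb before the first protein-coding transcript begins. Gm15398, a lincRNA gene on the minus strand at chr10:73201399-73327175, lies within intron 1 of Pcdh15-224. Gm15397, a sense intronic RNA gene on the plus strand at chr10:73489974-73518390, lies within intron 2.

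**Figure D1:**
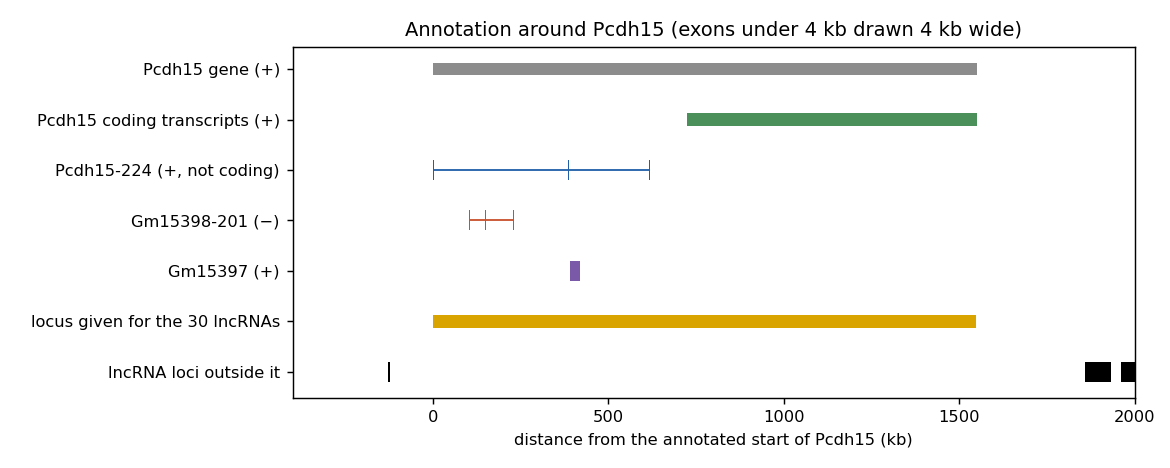
Annotated features around Pcdh15, by distance in kb from the annotated start of the gene, with strand in brackets. Pcdh15-224 and Gm15398-201 are drawn as exons (vertical bars) joined by introns (lines), and the locus given for all 30 lncRNAs covers almost the whole of Pcdh15, with the nearest other lncRNAs 126 kb before it and 311 kb after it.

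The table relates each lncRNA to its nearest reference transcript by a class code. Code x, given to 28 of the 30 transcripts, means an exon overlap with the reference on the opposite strand, and for all 28 the reference was Pcdh15-224. Code j, given to the other 2 transcripts, means that at least 1 splice junction is shared with the reference, which was Gm15398-201 (ENSMUST00000147653.1) for both. None was assigned to Gm15397. Since Pcdh15 is on the plus strand and Gm15398 on the minus strand, the codes put all 30 transcripts on the minus strand. The middle exon of each reference is shown because the codes turn on the exons of Pcdh15-224 and on the junctions of Gm15398-201, and the capitals mark the AG before the exon and the GT after it. Both are given 5′ to 3′ on the strand of their transcript with 10 intron bases at each end, from the RefSeq GRCm38.p6 sequence at chr10:73483851-73483943 on the plus strand for Pcdh15-224 and chr10:73247022-73247153 on the minus strand for Gm15398-201.
Pcdh15-224 exon 2: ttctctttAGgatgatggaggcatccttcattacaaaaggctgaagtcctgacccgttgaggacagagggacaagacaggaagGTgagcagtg
Gm15398-201 exon 2: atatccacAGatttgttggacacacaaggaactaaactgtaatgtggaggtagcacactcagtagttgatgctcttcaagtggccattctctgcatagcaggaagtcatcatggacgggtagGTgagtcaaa
The exon of Pcdh15-224 is 73 bases long with 50.7% GC, and that of Gm15398-201 is 112 bases long with 45.5% GC. Both exons lie between AG and GT on the strand of their own transcript, and neither holds a base masked as a repeat.

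All 30 transcripts carried the same locus, chr10:73099142-74646314, which at 1547173 bases was the fifth longest of the 15007 loci of the table. The locus column gives the extent of a group of overlapping transcripts, so where each of the 30 lies inside it is not known here. The 3 exons of Pcdh15-224 hold 2712 bases in all, or 96.9 bases for each of the 28 transcripts of class x, and which of these exons a transcript overlaps is not known either. The exon overlaps therefore rest on the class codes alone and could not be checked here. The 30 transcripts fell under 28 gene identifiers. Of these, 27 held 1 transcript each and XLOC_005878 held 3, namely the 2 transcripts of class j and 1 of class x. Their transcript numbers lay between TCONS_00016506 and TCONS_00016549, a run of 44 numbers of which 30 were in the table.

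Every one of the 30 transcripts had a higher FPKM in SSCs than in FGSCs, against 36% of all transcripts in the table. The region was picked for its SSC level, and the authors had removed weakly covered transcripts. With 2 of the 30 at 0.1 FPKM or more in FGSCs, most could have been kept through SSCs only. The count was thus partly fixed by how the transcripts were chosen. Summed over the locus, the level was 42.98 FPKM in SSCs against 0.740 FPKM in FGSCs, a ratio of 58.1. The locus thereby held 0.277% of the summed FPKM of all transcripts in SSCs and 0.00546% in FGSCs. Single transcripts ranged from 0.253 to 6.57 FPKM in SSCs, with a median of 0.996 FPKM, and from 0 to 0.168 FPKM in FGSCs, with a median of 0.00296 FPKM. The lowest transcript in SSCs thus stood above the highest in FGSCs. The transcripts belong to 1 locus picked for its SSC level and are not replicates of a cell type. Their ranges therefore say nothing about the spread between libraries.

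Set against the whole table, the transcripts stood in the upper part in SSCs and in the lowest part in FGSCs. In SSCs, all 30 transcripts stood above the median of the table, 0.251 FPKM, and 26 stood above its upper quartile, 0.642 FPKM. In FGSCs, all 30 stood below the lower quartile of the table, 0.229 FPKM. At least 1 FPKM was reached in SSCs by 15 of the 30 transcripts, against 2478 of all 18573 transcripts. At least 0.1 FPKM was reached in FGSCs by 2 of the 30, against 15565 of all 18573.

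On the log2(FPKM + 0.5) scale, which understates the change of low transcripts, 29 of the 30 were at least 2-fold higher in SSCs, against 15% of all transcripts, and 16.7% of all transcripts of class x. None was at least 2-fold higher in FGSCs, against 20.1% of all transcripts. The 30 come from 1 locus and are not separate observations, so these shares are given for scale only. With 1 FPKM added in place of 0.5, 14 of the 30 were at least 2-fold higher in SSCs. No share of all transcripts is given for that setting, so the shares above do not apply to it. The median difference of the 30 then stood at the 92.8 percentile of all transcripts. The exception at 0.5 FPKM, TCONS_00016525, was also the lowest in SSCs, and its difference was 0.57 on this scale. The median difference of the 30, SSCs minus FGSCs, was 1.55, against −0.44 over all transcripts, −0.28 over the 1523 other transcripts of class x and −0.44 over the 915 other transcripts on chromosome 10. The median of the 30 stood at the 93.4 percentile of all transcripts.

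**Figure D2:**
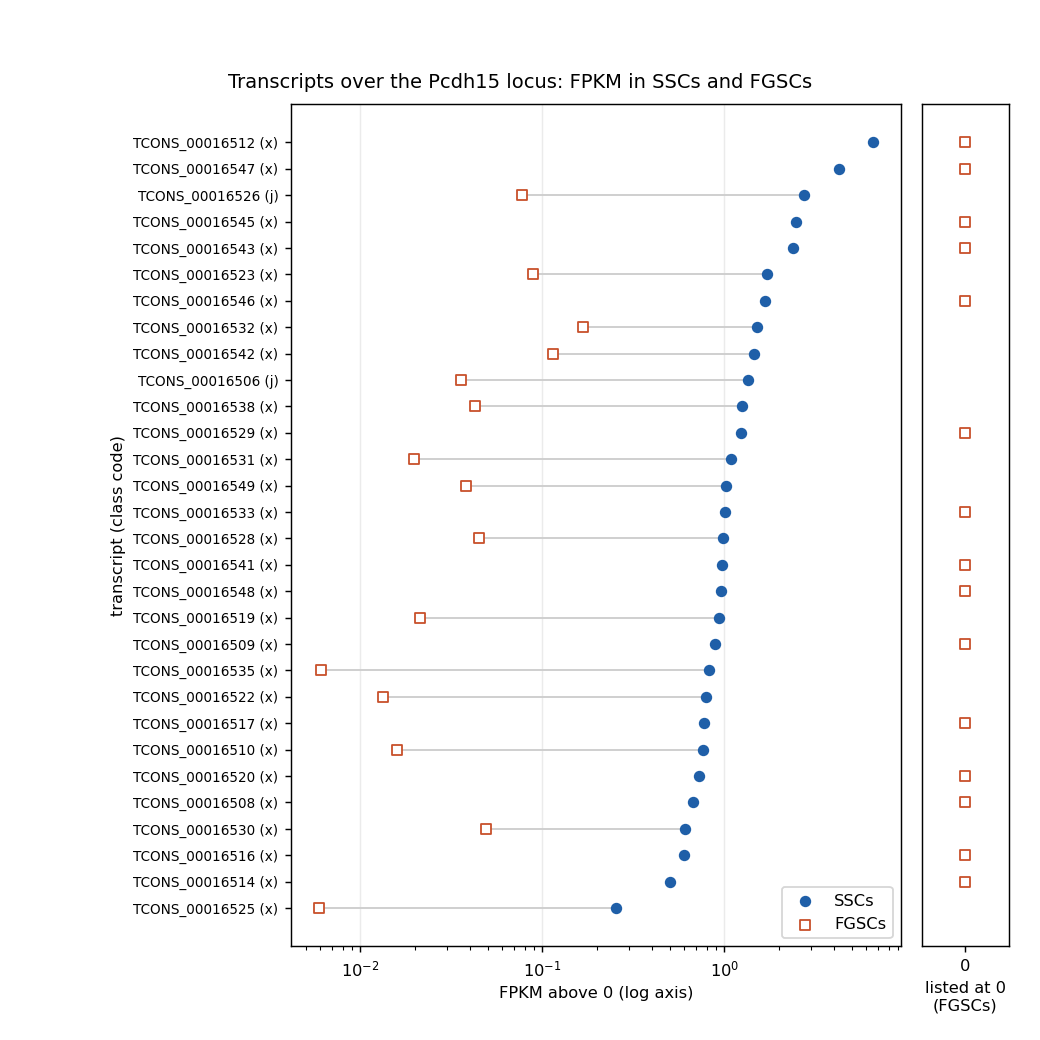
FPKM of each of the 30 transcripts in SSCs (filled circles) and FGSCs (open squares), 1 value per cell type, on a log axis with values of 0 in a panel of their own, ordered by the level in SSCs. The 30 values in SSCs lie between 0.253 and 6.57 FPKM, all to the right of every value in FGSCs, and 15 transcripts are listed at 0 in FGSCs.

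The highest level belonged to an antisense transcript that was listed at 0 in FGSCs. TCONS_00016512 had 6.57 FPKM in SSCs and was listed at 0 in FGSCs. TCONS_00016547, also of class x, had 4.26 FPKM in SSCs and was listed at 0 in FGSCs. These 2 transcripts carried 25.2% of the summed SSC level of the locus. TCONS_00016545 had 2.47 FPKM in SSCs, and TCONS_00016543 had 2.38 FPKM in SSCs. Both were listed at 0 in FGSCs, so that of the 5 transcripts at 2 FPKM or more in SSCs, 4 were at 0 in FGSCs and all 4 were antisense to Pcdh15-224.

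The remaining transcript at this level, TCONS_00016526, was one of those that share a junction with Gm15398-201. It had 2.73 FPKM in SSCs against 0.0768 FPKM in FGSCs, a ratio of 35.5. The other transcript of class j, TCONS_00016506, had 1.35 FPKM in SSCs against 0.0358 FPKM in FGSCs, a ratio of 37.7. TCONS_00016525, of class x but under the same gene identifier, had 0.253 FPKM in SSCs against 0.00591 FPKM in FGSCs, a ratio of 42.8. The 3 transcripts of XLOC_005878 thus lay at different levels with like ratios. Together they held 4.34 FPKM in SSCs and 0.119 FPKM in FGSCs, which was 10.1% of the summed level of the locus in SSCs and 16.0% of that in FGSCs.

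Between 1 and 2 FPKM in SSCs stood 9 further transcripts of class x, of which 3 were listed at 0 in FGSCs. These 3 were TCONS_00016546 at 1.67 FPKM in SSCs, TCONS_00016529 at 1.24 FPKM in SSCs and TCONS_00016533 at 1.01 FPKM in SSCs. The other 6 included the 3 transcripts with the highest levels in FGSCs. TCONS_00016532 had 1.51 FPKM in SSCs against 0.168 FPKM in FGSCs, and its ratio of 8.99 was the smallest among the transcripts above 0 in FGSCs. TCONS_00016542 had 1.46 FPKM in SSCs against 0.114 FPKM in FGSCs, a ratio of 12.8. TCONS_00016523 had 1.72 FPKM in SSCs against 0.0889 FPKM in FGSCs, a ratio of 19.4. These 3 transcripts held 50.1% of the summed FGSC level, and none of them was among the 5 highest in SSCs. TCONS_00016538 had 1.24 FPKM in SSCs against 0.0428 FPKM in FGSCs. TCONS_00016549 had 1.02 FPKM in SSCs against 0.0382 FPKM in FGSCs. TCONS_00016531 had 1.09 FPKM in SSCs against 0.0197 FPKM in FGSCs, and its ratio of 55.5 was the highest of these 6. On the log2(FPKM + 0.5) scale TCONS_00016523 differed most of the 6, by 1.92, and TCONS_00016531 differed by 1.62.

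The other 14 transcripts, all of class x, lay between 0.505 and 0.978 FPKM in SSCs. Of these, 8 were listed at 0 in FGSCs, and their levels in SSCs ran from 0.505 FPKM for TCONS_00016514 to 0.974 FPKM for TCONS_00016541. Between them stood TCONS_00016548 at 0.959 FPKM, TCONS_00016509 at 0.885 FPKM, TCONS_00016517 at 0.769 FPKM, TCONS_00016520 at 0.723 FPKM, TCONS_00016508 at 0.676 FPKM and TCONS_00016516 at 0.598 FPKM in SSCs. The 6 transcripts above 0 in FGSCs had ratios from 12.4 to 135. The smallest ratio was that of TCONS_00016530, at 0.606 FPKM in SSCs against 0.0487 FPKM in FGSCs. The largest was that of TCONS_00016535, at 0.820 FPKM in SSCs against 0.00605 FPKM in FGSCs. A ratio of this size rests on an FGSC value near 0, and on the log2(FPKM + 0.5) scale the same transcript differed by 1.38. TCONS_00016528, TCONS_00016519, TCONS_00016522 and TCONS_00016510 lay between these, with 0.767 to 0.978 FPKM in SSCs against 0.0133 to 0.0446 FPKM in FGSCs.

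In all, 15 of the 30 transcripts were listed at 0 in FGSCs and none in SSCs. In the table as a whole, the share listed at 0 in FGSCs was 7.16%, and 5.61% among those of class x. The 30 share 1 locus and Cuffdiff divides fragments among overlapping transcripts, so they are not separate observations. These shares are given for scale only. Each of the 15 also had at least 0.5 FPKM in SSCs, as did 995 of all 1329 transcripts listed at 0 in FGSCs. The combination was found in 5.36% of all transcripts. The 15 were all of class x, each under a gene identifier of its own, and held 25.7 FPKM in SSCs, or 59.8% of the summed SSC level of the locus. Their median in SSCs was 0.974 FPKM, against 1.02 FPKM for the 15 transcripts above 0 in FGSCs. The transcripts at 0 in FGSCs were spread over SSC levels from 0.505 to 6.57 FPKM. They were 4 of the 5 at 2 FPKM or more in SSCs, 3 of the 10 between 1 and 2 FPKM and 8 of the 15 under 1 FPKM. The 15 above 0 in FGSCs summed to 17.3 FPKM in SSCs against 0.740 FPKM in FGSCs, a ratio of 23.4, and their single ratios ran from 8.99 to 135 with a median of 35.5.

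The SSC level was unevenly shared among the transcripts. The highest transcript held 15.3% of the sum, the 3 highest 31.5%, the 5 highest 42.8% and the 10 highest 60.8%, and 7 transcripts were needed to reach 50% of it. Grouped by level, the 5 transcripts at 2 FPKM or more held 18.4 FPKM in SSCs, the 10 between 1 and 2 FPKM held 13.3 FPKM, and the 15 under 1 FPKM held 11.2 FPKM. The FGSC level was divided differently, with 0.0768 FPKM in the first of these groups, 0.507 FPKM in the second and 0.156 FPKM in the third. Across the 30 transcripts, Spearman's rho between the SSC and FGSC levels was 0.16, and across the 15 above 0 in FGSCs it was 0.73. These correlations are over transcripts of 1 locus whose levels come from the same libraries and from 1 shared estimate, and are given as a description.

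**Figure D3:**
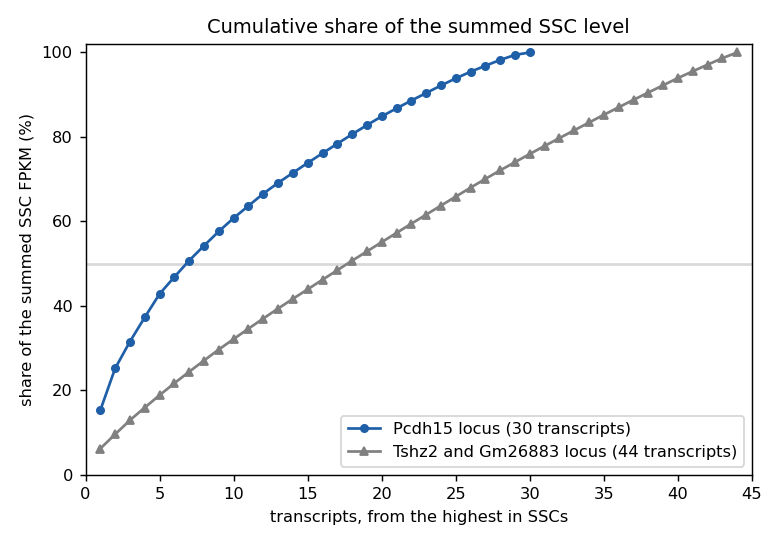
Cumulative share of the summed SSC FPKM (y axis, percent) against the number of transcripts counted from the highest in SSCs (x axis), for the Pcdh15 locus and for the locus of Tshz2 and Gm26883. The Pcdh15 curve passes 50% at 7 transcripts and the other curve at 18.

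By the class codes, whose exon overlaps were not checked, the number of antisense transcripts on a single reference was high for this table. Of the 998 reference transcripts with at least 1 lncRNA of class x, 740 had exactly 1, and 9 had 10 or more. Pcdh15-224, with 28, came second after a transcript of Gm26883, a lncRNA gene that lies with Tshz2 on chromosome 2, which had 44. By number of transcripts the Pcdh15 locus was the third of the 15007 loci, and by summed SSC FPKM it was number 33.

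A few loci were set beside that of Pcdh15 by the size of the difference, a choice made after their values were seen. The table had 49 loci with at least 10 transcripts, of which 15 had a higher sum in SSCs and 34 a higher sum in FGSCs. Ordered by the log2 ratio of the sums with 0.5 FPKM added to each, the Pcdh15 locus was the second, at 5.13. The first was the locus of Tshz2 and Gm26883 at chr2:169633013-170071816, with 71.2 FPKM in SSCs against 1.30 FPKM in FGSCs and a log2 ratio of 5.31. All of its 44 transcripts were of class x and each had a gene identifier of its own, against 28 of 30 of class x and 27 identifiers with 1 transcript over Pcdh15. As over Pcdh15, none was higher in FGSCs. The Tshz2 and Gm26883 locus differed in how even it was: its transcripts ran from 0.965 to 4.42 FPKM in SSCs, the 3 highest held 12.9% of the sum, and 22.7% were listed at 0 in FGSCs, against 50% over Pcdh15. These differences between the loci were not tested. The locus with the next ratio, at C430002E04Rik on chromosome 3, had 14 transcripts, none of class x, with 9.83 FPKM in SSCs against 0.139 FPKM in FGSCs. The fourth, at Gm26936 and Gm26979 on chromosome 1, had 11 transcripts, all of class x, with 8.32 FPKM in SSCs against 0.423 FPKM in FGSCs.

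**Figure D4:**
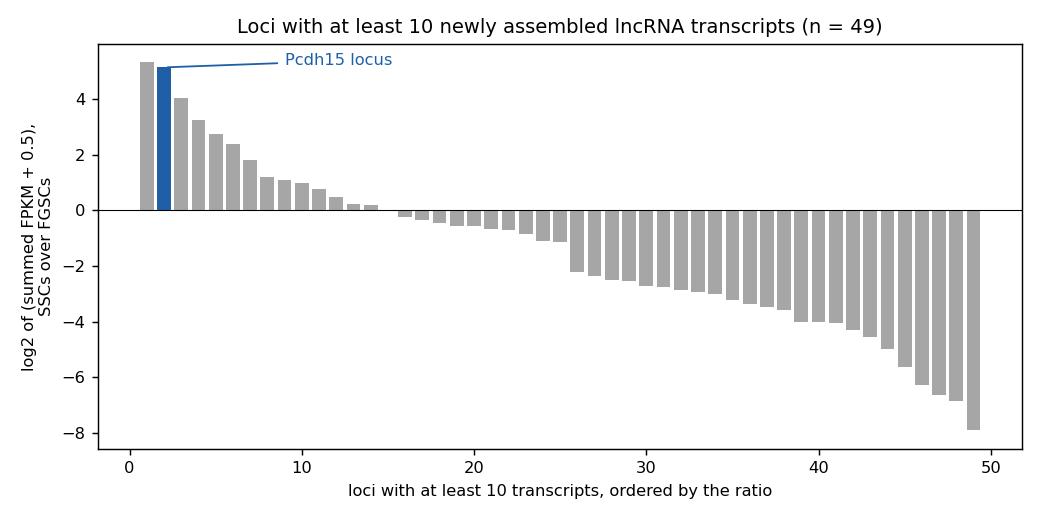
Log2 ratio of the summed FPKM plus 0.5, SSCs over FGSCs, for the 49 loci with at least 10 transcripts, ordered by the ratio. Bars above 0 are loci higher in SSCs (15 loci) and bars below 0 loci higher in FGSCs (34 loci), and the Pcdh15 locus stands second at 5.13.

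By gene identifier rather than by locus, the comparison was limited to identifiers with many transcripts. Only 2 gene identifiers in the table held at least 10 transcripts, and both had a smaller difference than XLOC_005878, whose log2 ratio of sums, with 0.5 FPKM added to each, was 2.97. XLOC_003820, at RP23-172L16.1 on chromosome 1, had 5.21 FPKM in SSCs against 2.0 FPKM in FGSCs, a log2 ratio of 1.19. XLOC_012340, on chromosome 12 and without a gene name in the table, had 3.64 FPKM in SSCs against 1.68 FPKM in FGSCs, a log2 ratio of 0.92.

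Outside the Pcdh15 locus the lncRNAs of the same stretch of chromosome 10 showed no such one-sided difference. Within 2 Mb on either side, 19 transcripts were found, 8 higher in SSCs and 11 higher in FGSCs, with summed levels of 9.99 FPKM in SSCs against 13.0 FPKM in FGSCs. Their median difference was −0.05 on the log2(FPKM + 0.5) scale, against 1.55 over Pcdh15. The nearest of them, TCONS_00016504 at chr10:72972234-72973067, was also the only one at least 2-fold higher in SSCs. It lay 126 kb before the locus, 236 bases from the lncRNA gene A330049N07Rik, had class code u, which means that it overlapped no reference transcript, and stood at 0.936 FPKM in SSCs and at 0 in FGSCs. The only one at least 2-fold higher in FGSCs was TCONS_00013007, an antisense transcript to Rtdr1 that lay 311 kb after the locus, with 2.15 FPKM in SSCs against 5.32 FPKM in FGSCs.

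**Figure D5:**
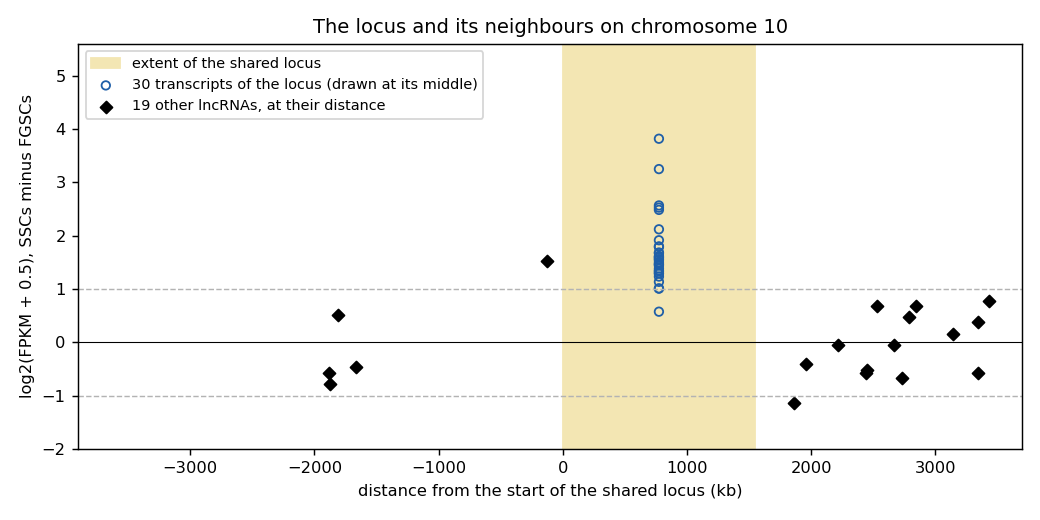
Difference of log2(FPKM + 0.5), SSCs minus FGSCs, for the 30 transcripts of the locus (circles, drawn at the middle of the locus, since their own positions are not known) and for the 19 other lncRNAs within 2 Mb (diamonds), by distance from the start of the locus in kb. The dashed lines mark 2-fold, which 29 of the 30 transcripts pass upward, against 1 of the 19 upward and 1 downward.

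Newly assembled lncRNAs were also looked up at genes that work with Pcdh15, without a share over genes in general to set beside the counts. Of 17 genes of the hair bundle and of Usher syndrome, 2 had a newly assembled lncRNA. None of their 3 transcripts was at least 2-fold different, against 15% of all transcripts higher in SSCs and 20.1% higher in FGSCs by this measure, and 3 transcripts are too few to set against these shares. At Lhfpl5, which encodes a membrane protein of the mechanotransduction complex, TCONS_00065516 had 0.310 FPKM in SSCs against 0.298 FPKM in FGSCs. Among 27 other genes of the cadherin family, only Fat3, the gene of a large atypical cadherin, had a transcript. It was TCONS_00150943, listed at 0 in SSCs and at 0.359 FPKM in FGSCs, a difference of −0.78 on the log2(FPKM + 0.5) scale.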

How the data were processed

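Total RNA of 3 SSC and 3 FGSC libraries was depleted of rRNA and sequenced in a strand-specific manner. Reads were aligned by the authors to mm10 and assembled, and they removed short, weakly covered, known and potentially coding transcripts. The submitters' processing notes name TopHat2, Cufflinks and Cuffdiff 2.1.1, and the study's methods add Scripture as an assembler. The deposited FPKM values are the authors' own, 1 per transcript and cell type over its libraries. Cuffdiff divides fragments among overlapping transcripts, so a single level depends on the assembly more than their sum does. The deposited table also holds the authors' log2 fold changes, test statistic, p-values and q-values, which were not used. No fold is given against a value of 0.

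Starts were raised by 1 to count from 1. Fold differences used log2(FPKM + 0.5), with no filter and no rescaling. No test was run, since no library values were used here, and depth per transcript is unknown, so no counting interval is given. The design called for accounting for all transcripts in the window and for naming gene identifiers with at least 10 transcripts by their likeness to the one with most transcripts. The transcripts and gene lists were chosen with earlier results of these data known. Values at 1 listed gene are not reported here. Alternatives were other pseudocounts, filters and scalings, classes, and leaving out the highest transcripts. Annotation was GENCODE M21, and sequence came from RefSeq GRCm38.p6. The counting script was checked on simulated data. Python 3.11.15, pandas 2.3.3, NumPy 2.4.6 and matplotlib 3.10.9 were used.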

Additional observations from a re-analysis of the deposited data

How the results depend on the processing

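Of 59 recomputed values, 51 moved by less than 1.5 times, which for log2 values means by less than a fold of 1.5. No log2 value changed sign. Part of the 51 had little or no room to move. Taking loci that overlap the window, or filtering at 0.1 FPKM, kept the same 30 transcripts. The count at least 2-fold higher in FGSCs was 0 in every setting. The 51 are thus no measure of stability. The median log2 difference was 3.18 with a pseudocount of 0.1 FPKM and 0.98, below 2-fold, with one of 1 FPKM. With the pseudocount of 1 FPKM, 14 of the 30 transcripts were at least 2-fold higher in SSCs, a count given without a share of all transcripts. The log2 ratio of the sums, 5.86 as deposited, was 6.68 with equal medians and 6.79 after quantile normalization. Restricted to XLOC_005878, it was 5.19, with 2 transcripts at least 2-fold higher in SSCs, 100% of the sum in the 3 highest and 0 listed at 0 in FGSCs. Chosen after seeing the data, leaving out the 3 highest transcripts gave 5.47 and class x alone 5.95. The median log2 difference of all transcripts was −0.44 as deposited and −0.11 with equal medians, and that of the 30 was 1.55 under both. No paired analysis was possible because the columns carry no library or replicate number. The unknown number of reads behind each transcript limits every level in FGSCs, most of all those listed at 0.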
